A study of Mus musculus with 6 samples.

Results

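The heat shock proteins and the DnaJ proteins are the cell's main families of protein-folding helpers, and 71 of the 16281 genes in the count table belong to them. Members were taken by symbol alone, as every gene whose symbol begins with Hspa, Hspb, Hspd, Hspe, Hsph, Hsp90, Dnaja, Dnajb or Dnajc, together with the heat shock factors Hsf1 and Hsf2. The family itself was chosen with earlier results of these data known. The set holds 28 genes with an Hsp symbol, 41 DnaJ genes and the 2 factors. Of the Hsp symbols, 3 share the Hspb prefix without being small heat shock proteins (Hspb11, Hspbp1 and Hspbap1). After a filter on low counts, 60 of the 71 genes were tested for expression, among 11698 genes in all, and 11 had too few counts.

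RNA was sequenced from spleen CD8+ T cells of C57BL/6 mice that carry the OT1 transgene, Tg(TcraTcrb)1100Mjb, which gives their T cells a receptor for an ovalbumin peptide. All 6 cultures were activated for 48 h with antibodies against CD3 and CD28, each at 2 μg/ml, and IL-2 at 20 ng/ml, and were then expanded with IL-2 for 3 days. The GSK group (3 samples) received 0.5 μM GSK2879552, an irreversible inhibitor of the histone demethylase LSD1, through activation and expansion, and the Veh group (3 samples) received vehicle. The study names 3 separate mice as the source and does not say whether cultures with the same number came from the same mouse, and the ages of the animals are not given in the sources used here.

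HSP70 proteins bind stretches of unfolded polypeptide in a cycle driven by ATP. DnaJ proteins carry the J domain that stimulates the HSP70 ATPase and bring clients to it, HSP110 proteins release its nucleotide, and HSP90 takes over late folding steps of kinases, receptors and other clients. Separate sets work in the cytosol, the endoplasmic reticulum (ER) and the mitochondria, where the HSP60 and HSP10 chaperonin also folds proteins. In T cells, activation and growth raise the load of new protein, and the factor HSF1 drives many of these genes under heat or other protein stress.

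The deposited counts summed to between 18288447 and 18918811 in Veh samples and to between 19149909 and 19846720 in GSK samples. These ranges did not overlap, and the part of depth in the differences was not tested. The T cell genes of a fixed list of 10 (Cd3d, Cd3e, Cd3g, Cd247, Cd8a, Cd8b1, Cd2, Cd5, Thy1 and Lck) had a summed level of 4634 to 4754 CPM (the depth-normalised count, from TMM-scaled library totals) in Veh and 4737 to 4910 CPM in GSK, with 3 genes higher and 4 lower past an adjusted p of 0.05. The CD4 gene lay at or below 1.79 CPM in every sample. A list of 7 B cell genes summed to 33.1 to 34.3 CPM in Veh and 27.2 to 38.9 CPM in GSK, with 2 of its 4 tested genes higher (Cd22 and Cd74) and 1 lower (H2-Ab1). The 3 not tested, Ms4a1, Cd79a and Pax5, had at most 11 counts in any sample. A list of 8 myeloid genes summed to 7.34 to 7.94 CPM in Veh and 5.06 to 6.38 CPM in GSK, with 1 of its 5 tested genes higher (Tyrobp) and 1 lower (Fcgr3). NK genes (1.58 to 2.39 CPM in Veh, 2.38 to 3.78 CPM in GSK) and red cell genes (at most 0.365 CPM) were near the floor, and no listed gene was at 0 in every sample. The part of these cell types in the chaperone values was not tested. In bulk RNA, fewer cells of a type and less RNA per cell cannot be told apart.

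Small increases were found for some of the major folding genes of the cytosol, the ER and the mitochondria. Most DnaJ genes and the most abundant HSP90 gene did not pass the test, and the stress-inducible HSP70 genes had few counts. At an adjusted p under 0.05, by the quasi-likelihood test of edgeR, adjusted over all genes tested by the Benjamini-Hochberg method, 19 of the 60 tested genes rose and 5 fell, or 31.7% and 8.33%. Among all genes tested, 16.6% rose and 15.5% fell at the same threshold. In either direction that was 24 of 60 (40.0%), against 32.1% of all genes. Beyond 1.5-fold as well, 3 of the 60 genes differed, where all genes gave 6.32%. Dnajb14 rose (all genes, 2.22%), and Hspb11 and Dnajc12 fell (all genes, 4.09%). The other 18 genes that rose did so by 1.12-fold to 1.37-fold. The median log2 fold change of the 60 genes was 0.10, against -0.0039 for all genes tested, and 40 of the 60 were above 0, against 49.3% of all genes. The groups did not overlap for 28 of the 60 genes, where all genes gave 46.7%, with all GSK samples above for 21 and below for 7 (23.7% and 23.0% of all genes).

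Abundant genes were more often higher in GSK. At a mean count of 1000 or more, a limit chosen after the values were seen, 25.8% of 4391 genes rose and 17.0% fell. Of the 28 chaperone genes above that limit, 15 rose and 3 fell, with a median log2 fold change of 0.17 against 0.03 for all such genes.

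**Figure D1:**
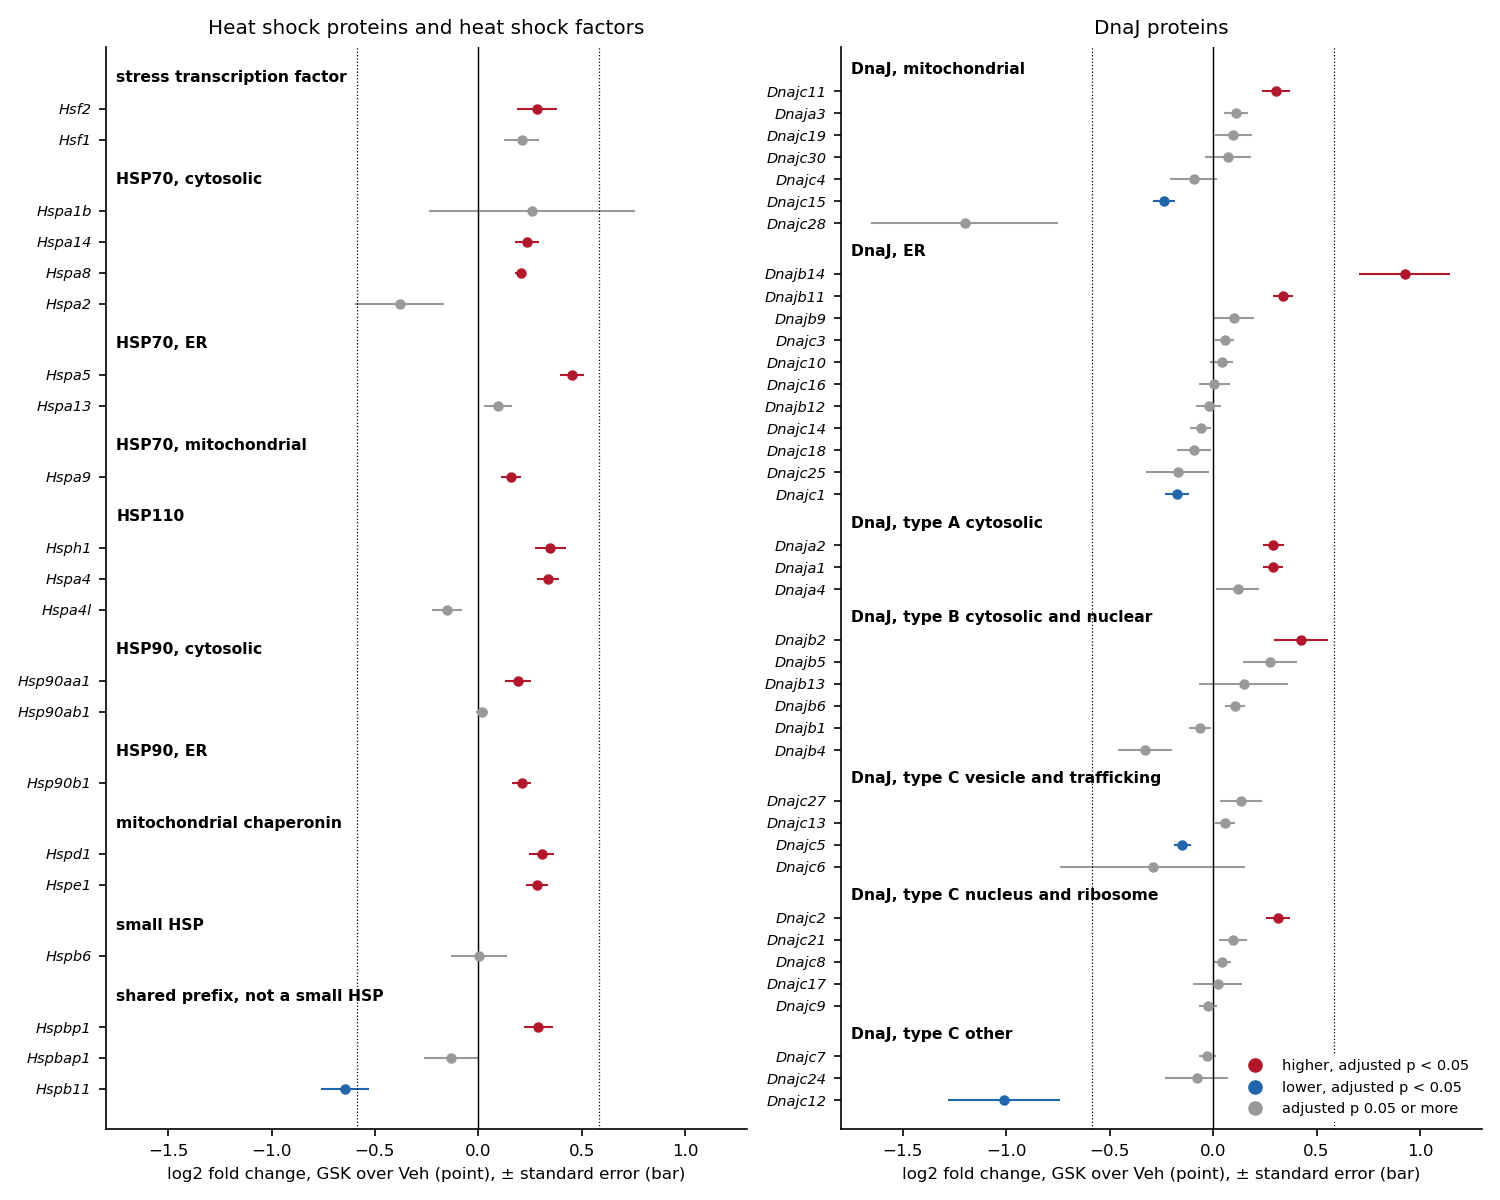
Log2 fold change of GSK over Veh for each of the 60 tested genes, grouped by role, with its standard error (bar) from 3 samples a group. Red marks genes that rose and blue genes that fell at an adjusted p under 0.05, and dotted lines mark 1.5-fold. The red points lie mostly between log2 changes of 0.16 and 0.45, with Dnajb14 at 0.93, and Hspb11 and Dnajc12 are the blue points beyond the dotted line.

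The HSP70 gene of the ER, Hspa5 (chr2:34772090-34776529, GRCm38, plus strand), encodes BiP, which holds new secretory and membrane proteins and senses unfolded protein. Its level was 524, 573 and 516 CPM in the Veh samples and 745, 673 and 788 CPM in the GSK samples. The GSK samples all exceeded the highest Veh sample. It rose by 0.45 on the log2 scale (SE 0.059, adjusted p = 0.000352), the largest change among the tested genes of the family with a mean above 20 CPM in both groups. Dnajb11, a lumenal DnaJ partner of BiP, rose along with it, from 114, 124 and 114 CPM to 147, 144 and 155 CPM, with a log2 fold change of 0.34 (SE 0.049, adjusted p = 0.000307). Hsp90b1, the HSP90 of the ER that folds integrins and Toll-like receptors, measured 1048, 1095 and 1064 CPM in Veh and 1254, 1140 and 1314 CPM in GSK. Its groups did not overlap, with a log2 fold change of 0.21 (SE 0.046, adjusted p = 0.00493).

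Hspa13, a small HSP70 relative, had 27.8 ± 0.67 CPM (SD, n = 3) in Veh samples and 29.7 ± 0.92 CPM in GSK samples, with an adjusted p of 0.311 by edgeR's quasi-likelihood test. Dnajb9 (ERdj4), whose transcript is a common readout of the unfolded protein response, had a log2 fold change of 0.10 (SE 0.096, adjusted p = 0.445). Dnajc3 (P58IPK), an inhibitor of the kinase PERK, had 0.06 (SE 0.045, adjusted p = 0.370). Across the 14 ER genes, 4 rose, 1 fell and 9 did not pass, where 16.6% of all genes rose and 15.5% fell. Dnajb14, a DnaJ protein anchored in the ER membrane, measured 2.88, 1.88 and 2.68 CPM in Veh and 5.46, 3.80 and 4.90 CPM in GSK. All GSK samples were above all Veh samples, with a log2 fold change of 0.93 (SE 0.22, adjusted p = 0.00698), on 35 to 104 counts a sample. Dnajc1, another ER membrane DnaJ protein, fell by 0.17 on the log2 scale (SE 0.060, adjusted p = 0.0394), and 6.43% of its exon length overlaps Mllt10 on the other strand. DESeq2 gave Dnajc1 an adjusted p of 0.0666, and edgeR gave 0.106 to 0.135 in 4 of the 6 fits that left out a sample (Veh replicate 1 or 2, GSK replicate 1 or 3).

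**Figure D2:**
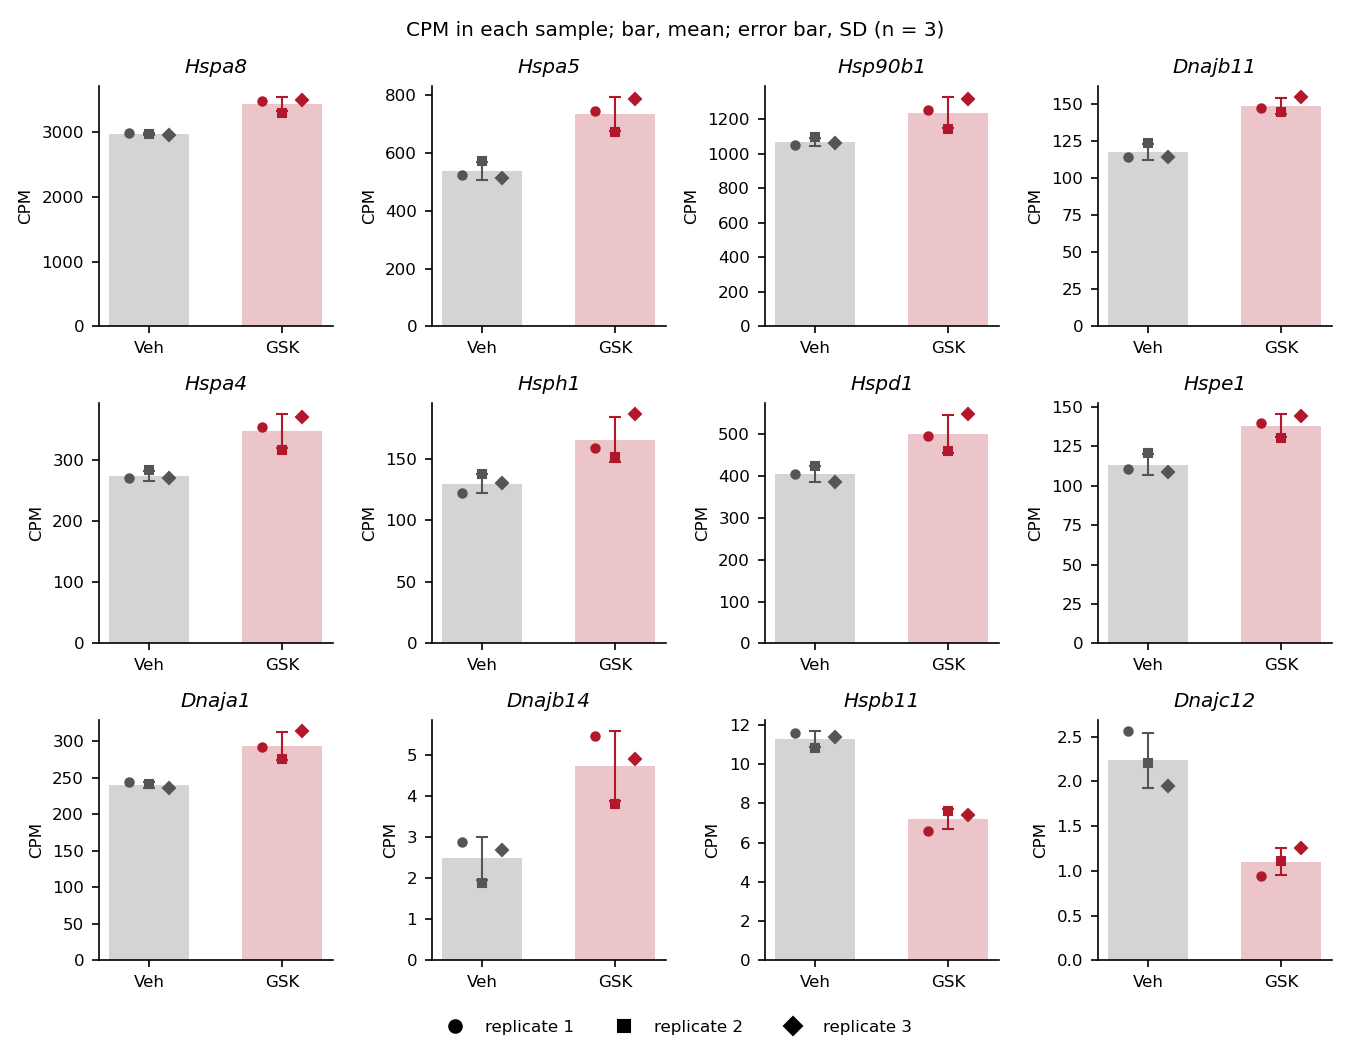
CPM (vertical axis, from 0) of 12 genes in each sample, with points for replicates 1 to 3, a bar for the mean and an error bar for the SD (n = 3). In the first 10 panels the GSK points lie above the Veh points, as in Hspa5 (673 to 788 CPM against 516 to 573 CPM), and in Hspb11 and Dnajc12 they lie below.

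Hspa8 (chr9:40801276-40805202, plus strand) encodes HSC70, the HSP70 made without stress. It measured 2992, 2979 and 2959 CPM in Veh and 3490, 3304 and 3494 CPM in GSK. The Veh samples lay within a narrow range below all GSK samples, with a log2 fold change of 0.20 (SE 0.028, adjusted p = 0.000222). Hspa1a and Hspa1b, the HSP70 genes that heat induces, were near the floor. Hspa1a had 0 to 7 counts and Hspa1b 5 to 25 counts in a sample, so Hspa1a was not tested and Hspa1b gave a log2 fold change of 0.26 with an SE of 0.50 (adjusted p = 0.722). A difference of the size seen for Hspa8 was not detectable for Hspa1b at this depth. The pair is near-identical, with 65.4% of the 31-base words of Hspa1a and 68.0% of those of Hspa1b found in another gene, so their split is uncertain. Hspa14, the HSP70 of the ribosome-associated complex, rose with a log2 fold change of 0.24 (SE 0.059, adjusted p = 0.00914), and 7.91% of its exon length also belongs to Gm45902 on the same strand.

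HSP110 proteins exchange the nucleotide of HSP70. Hspa4 measured 270, 284 and 270 CPM in Veh and 353, 316 and 370 CPM in GSK. Its groups were apart, with a log2 fold change of 0.34 (SE 0.055, adjusted p = 0.000718). Hsph1 (HSP105) measured 122, 137 and 130 CPM in Veh and 159, 151 and 186 CPM in GSK. It rose by 0.35 on the log2 scale (SE 0.075, adjusted p = 0.00579). Hspa4l, their relative, had 30.4 ± 1.58 CPM in Veh samples and 27.3 ± 0.96 CPM in GSK samples, with all GSK samples below all Veh samples and an adjusted p of 0.121. Hspbp1, another nucleotide exchange factor of HSP70, went from 43.0 ± 2.78 to 52.6 ± 3.65 CPM (log2 fold change 0.29, SE 0.070, adjusted p = 0.00679).

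Among the DnaJ genes of the cytosol, 2 of 3 tested type A genes rose and 1 of 6 tested type B genes did. Of all genes tested, 16.6% rose. Dnaja1, a farnesylated partner of HSC70, measured 244, 241 and 235 CPM in Veh and 292, 276 and 313 CPM in GSK. Dnaja2, its close relative, measured 194, 201 and 193 CPM in Veh and 239, 225 and 256 CPM in GSK. Both had groups without overlap and a log2 fold change of 0.29 (adjusted p = 0.000769 and 0.000941). Dnajb1 (HSP40), the DnaJ gene most tied to the heat shock response, had 86.8 ± 4.41 CPM in Veh samples and 83.2 ± 3.12 CPM in GSK samples, with overlapping groups and an adjusted p of 0.403. Dnajb6, which holds back protein aggregation, had a log2 fold change of 0.11 (SE 0.046, adjusted p = 0.0974). The 1 type B gene that rose, Dnajb2, was named after its values were seen and went from 9.51 ± 1.58 to 12.8 ± 0.82 CPM (log2 fold change 0.42, SE 0.13, adjusted p = 0.0242). Whether its call holds in the alternative analyses was not examined.

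Type C DnaJ proteins have specialised sites and clients. Dnajc2, which works at the ribosome beside Hspa14 on emerging chains, measured 137, 140 and 130 CPM in Veh and 169, 156 and 182 CPM in GSK. Its groups did not overlap, with a log2 fold change of 0.31 (SE 0.057, adjusted p = 0.00132). Dnajc5, the cysteine string protein of secretory vesicles, fell by 0.15 (SE 0.042, adjusted p = 0.0166), from 189 ± 3.98 to 170 ± 3.90 CPM. Without Veh replicate 1, Veh replicate 2 or GSK replicate 1, its adjusted p was 0.0717, 0.0504 and 0.0741. Dnajc7, which links HSP70 and HSP90, and Dnajc9, a histone chaperone, had log2 fold changes of -0.03 and -0.02 (adjusted p = 0.618 and 0.717). Dnajc12, a cochaperone of aromatic amino acid hydroxylases, measured 2.56, 2.20 and 1.94 CPM in Veh and 0.945, 1.11 and 1.25 CPM in GSK. All GSK samples were below all Veh samples, with a log2 fold change of -1.01 (SE 0.27, adjusted p = 0.0128), on 18 to 47 counts a sample. Without Veh replicate 1 or GSK replicate 1, its adjusted p was 0.0588 and 0.0545. Over all 39 tested DnaJ genes, 7 rose, 4 fell and 28 did not pass, with a median log2 fold change of 0.04, where 16.6% of all genes rose and 15.5% fell. Of the 19 tested genes with an Hsp symbol, 11 rose and 1 fell, with a median of 0.20. The difference between these groups of genes was not tested.

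Both genes of the mitochondrial chaperonin rose. Hspd1 (HSP60, chr1:55077833-55088243, minus strand) measured 405, 423 and 385 CPM in Veh and 494, 458 and 547 CPM in GSK. Hspe1 (HSP10, its lid, chr1:55088148-55091317, plus strand) measured 110, 121 and 109 CPM in Veh and 140, 130 and 144 CPM in GSK. The groups did not overlap for either gene, and the log2 fold changes were 0.31 (SE 0.061, adjusted p = 0.00338) and 0.28 (SE 0.055, adjusted p = 0.00199). These genes start back to back, and their exons overlap on opposite strands over 4.24% and 7.60% of their length. Hspa9 (mortalin), the HSP70 of the matrix, went from 419 ± 15.5 to 467 ± 31.3 CPM with overlapping groups, a log2 fold change of 0.16 and an adjusted p of 0.0282. That call was lost with the replicate number as a block (adjusted p = 0.0647), with upper-quartile scaling (0.0755) and in 4 of the 6 fits without a sample (Veh replicate 1 or 3, GSK replicate 1 or 3), at 0.0854 to 0.121. Its DnaJ partner Dnaja3 (TID1) had a log2 fold change of 0.11 (SE 0.059, adjusted p = 0.173).

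Of the 7 tested DnaJ genes of the mitochondria, 1 rose, 1 fell and 5 did not pass. Of all genes tested, 16.6% rose and 15.5% fell. Dnajc11, a part of the complex that shapes the cristae, measured 55.2, 65.3 and 54.2 CPM in Veh and 71.6, 72.3 and 71.6 CPM in GSK. It rose by 0.30 on the log2 scale (SE 0.068, adjusted p = 0.00476), with the GSK samples close together above all Veh samples. Dnajc15 (MCJ), which restrains the respiratory chain in CD8+ T cells, measured 122, 110 and 126 CPM in Veh and 98.1, 103 and 103 CPM in GSK. It fell by 0.24 (SE 0.054, adjusted p = 0.00525), with all GSK samples below all Veh samples. Dnajc28, named after its values were seen, had the lowest fold change of the genes that did not pass, at -1.20 on the log2 scale (SE 0.45, adjusted p = 0.0573) on 6 to 23 counts.

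The cytosolic HSP90 genes differed from each other in their values. Hsp90ab1, the constitutive HSP90, measured 3934, 4005 and 4049 CPM in Veh and 4059, 3895 and 4184 CPM in GSK. The groups overlapped, with a log2 fold change of 0.02 (SE 0.029, adjusted p = 0.674). Hsp90aa1, the more inducible one, measured 905, 964 and 926 CPM in Veh and 1074, 956 and 1159 CPM in GSK, so GSK replicate 2 lay within the Veh range. Its log2 fold change was 0.19 (SE 0.063, adjusted p = 0.0478), and 9 of the 14 alternative analyses that tested it put the adjusted p above 0.05. The difference between these fold changes was not tested.

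The heat shock factors showed small differences. Hsf1, the main activator, measured 35.0, 36.5 and 35.6 CPM in Veh and 38.8, 37.5 and 47.6 CPM in GSK. GSK replicate 3 stood highest and the groups did not overlap, but the log2 fold change of 0.21 (SE 0.086) had an adjusted p of 0.0796. Without GSK replicate 3 it was 0.09 (adjusted p = 0.37), and without GSK replicate 2 it was 0.27 (adjusted p = 0.0195). Hsf2 measured 10.8, 11.7 and 11.9 CPM in Veh and 13.8, 13.6 and 14.5 CPM in GSK, a log2 fold change of 0.28 (SE 0.098, adjusted p = 0.0419). The call for Hsf2 was lost in 11 of 14 alternatives, among them DESeq2 (adjusted p = 0.12), the replicate block (0.0641) and each of the 6 fits without a sample (0.0534 to 0.146).

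Hspb11, which despite its symbol is a part of the intraflagellar transport complex (IFT25), showed the most marked decrease among genes above 5 CPM. It lies at chr4:107253593-107284497 on the plus strand and measured 11.6, 10.8 and 11.4 CPM in Veh and 6.61, 7.59 and 7.40 CPM in GSK. The groups were far apart, with a log2 fold change of -0.65 (SE 0.12, adjusted p = 0.00127). True small heat shock proteins, which hold unfolded proteins without ATP, were mostly at or near 0 counts. Hspb1 (HSP25) had 0 to 3 counts in a sample and was not tested, as was the case for Hspb2, Hspb7, Hspb8 and Hspb9, and for Hspa1l, Hspa12a, Hspa12b, Dnajb3 and Dnajc22, none above 12 counts. Hspb6 was the 1 small heat shock gene with enough counts, at a log2 fold change of 0.00 (SE 0.14).

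The 36 tested genes that did not pass had log2 fold changes from -1.20 to 0.27, and 20 of them lay within 0.1 of 0. In the 19 genes that rose, GSK replicate 3 was the highest of all samples for 16 and GSK replicate 2 the lowest GSK sample for 17. GSK replicate 3 was also the highest sample for 64.3% of all genes that rose. Without GSK replicate 3 the test found 16 of the chaperone genes higher, and without GSK replicate 2 it found 19. Leaving out any 1 sample gave 15 to 19 higher and 2 to 6 lower genes, and the count of 2 lower came without Veh replicate 1 and without GSK replicate 1.

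The promoters of some of these genes carry well-known response elements. The elements were picked because they are known from genes of this kind, so their shares below describe the windows and test nothing. Whether HSF1 or the unfolded protein response had a part in the increases was not tested. RefSeq promoter windows (GRCm38.p6, 250 bases before to 50 bases after each start) were found for 57 of the 71 genes and not for 14, among them Hspa8, Hsp90aa1 and Hsp90ab1. A heat shock element was searched as GAANNTTC or TTCNNGAA, which read the same on both strands, and the longer form as 3 such alternating units spaced by 2 bases. The longer form was found in 4 of the 57 (7.02%, against 0.662% of all 27025 genes with a window), and the short form in 14 (24.6% against 17.0%). Capitals mark the run of units in the following windows, written in the direction of the gene.
Hspe1: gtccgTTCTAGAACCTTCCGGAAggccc
Hsph1: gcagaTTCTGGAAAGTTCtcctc
Dnajb6: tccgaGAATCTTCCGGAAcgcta
The Hspe1 window is chr1:55088054-55088081 (plus strand), its run lies 89 to 72 bases before the start of Hspe1, and the same bases on the other strand lie 144 to 127 bases before the start of Hspd1. The Hsph1 window is chr5:149636283-149636305 (minus strand), with its run 15 to 27 bases after a start, and the Dnajb6 window is chr5:29735847-29735869 (plus strand). Of these 4 genes, Hspd1, Hspe1 and Hsph1 rose and Dnajb6 did not pass.

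The ER stress element, searched on either strand as CCAAT and CCACG spaced by 9 bases, was found in 3 of the 57 genes (5.26%), against 0.137% of all genes. All 3 encode ER chaperones. Capitals mark the element.
Hspa5: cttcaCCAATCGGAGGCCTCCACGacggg
Hsp90b1, first: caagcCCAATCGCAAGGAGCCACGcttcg
Hsp90b1, second: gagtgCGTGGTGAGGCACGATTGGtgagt
Dnajc3: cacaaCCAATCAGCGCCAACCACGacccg
The windows, with 5 bases on each side of the element, are chr2:34772020-34772048 (plus), chr10:86705633-86705661 and chr10:86705528-86705556 (minus) and chr14:118937822-118937850 (plus), and the Hspa5 element lies 65 to 47 bases before the start. Hspa5 and Hsp90b1 rose, and Dnajc3 did not pass. Of the 11 tested genes with the short heat shock element, 4 rose and 7 did not pass. Of the 37 tested genes with a window and no such match, 10 rose, 3 fell and 24 did not pass. Of all genes tested, 16.6% rose and 15.5% fell. The difference between genes with and without the element was not tested. A match describes the letters in the window and does not show that a factor binds there.

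The share of the chaperone pool held by each gene can be compared roughly per length of exon. The length used merges the exons of all annotated transcripts of a gene, whether or not these cells make them. For Hspa8 it was 4301 bases, longer than the RefSeq span of the gene (chr9:40801276-40805202). Levels per kb, shares and the order of genes depend on these lengths and are approximate. In Veh samples Hsp90ab1 stood highest at 1332 CPM per kb (range 1312 to 1350), or 35.7% of the summed level of all 71 genes, and Hspa8 followed at 692 CPM per kb (688 to 696), or 18.6%. Hsp90b1 (265), Hsp90aa1 (237), Hspd1 (153), Hspa5 (127) and Hspa9 (97.1 CPM per kb) came next. The ranges of neighbours in this order did not overlap in Veh down to Hspe1 (76.9), whose range of 73.8 to 82.0 CPM per kb overlapped that of Dnajc9 (74.5). In GSK samples the Hspd1 range (173 to 207) overlapped that of Hspa5 (159 to 186 CPM per kb).

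**Figure D3:**
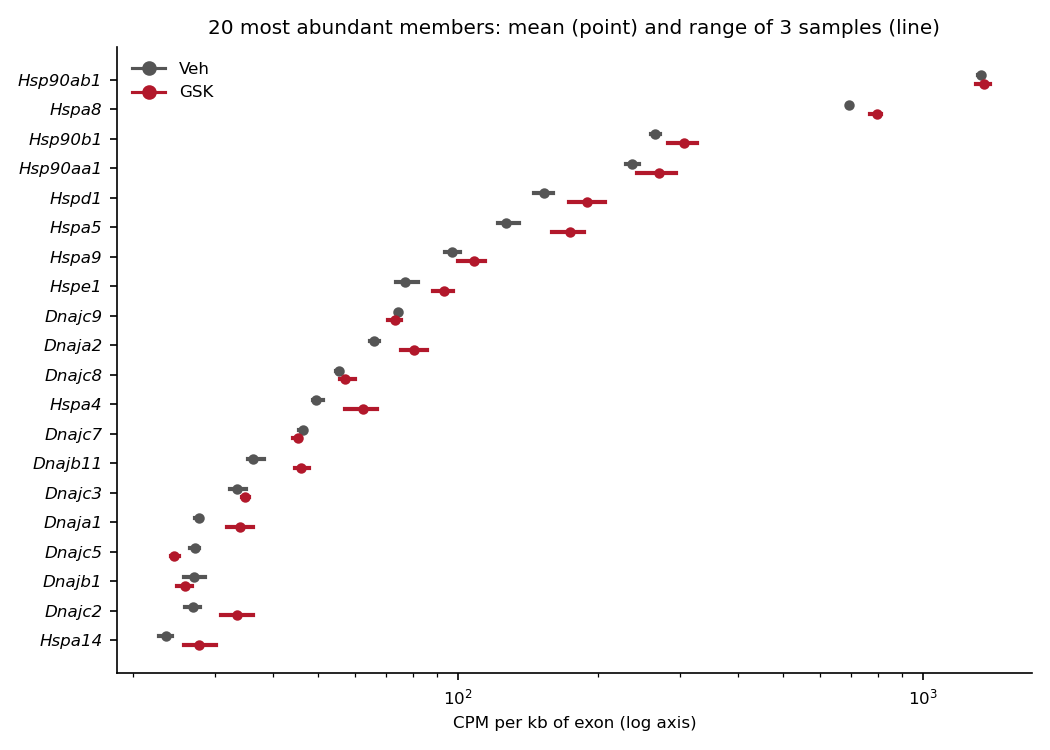
Level of the 20 most abundant genes in CPM per kb of exon (log axis), with the mean (point) and the range of 3 samples (line) for Veh and GSK. Hsp90ab1 and Hspa8 lie well above the rest, and the GSK points of Hspa5 and Hspd1 lie to the right of their Veh points.

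Summed over all 71 genes, the level was 13712 to 14032 CPM in Veh and 14562 to 15945 CPM in GSK, a ratio of means of 1.11. The 2 HSP70 genes of the ER had the largest ratio of any class (1.35), at 543 to 600 CPM in Veh and 703 to 818 CPM in GSK. Hspa5 held most of that sum, with means of 537 CPM in Veh and 735 CPM in GSK, against 27.8 and 29.7 CPM for Hspa13. Next came HSP110 (1.24), the mitochondrial chaperonin (1.23) and the type A DnaJ genes (1.22). The cytosolic HSP90 sum had overlapping groups, at 4838 to 4975 CPM and 4851 to 5343 CPM (ratio 1.04), and the sum of mitochondrial DnaJ genes had a ratio of 1.00. These sums were not tested.

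Genes that work with the chaperones were read from lists that do not overlap the family, apart from the HSF1 targets. Beside each list stand the shares of all genes tested, 16.6% higher and 15.5% lower. Among genes with a mean count of 1000 or more, these shares were 25.8% and 17.0%. The lists were not tested against these shares. Among 28 cochaperones, 8 rose, 1 (Sugt1) fell and 19 did not pass, with a median log2 fold change of 0.09. By DESeq2, and with the replicate number as a block in edgeR, 0 fell. Ppp5c, a phosphatase that binds HSP90, rose from 107, 109 and 104 CPM to 145, 129 and 150 CPM (log2 fold change 0.41, SE 0.058, adjusted p = 0.000249). Ppid, a cyclophilin of the HSP90 complex, and Ahsa1, which stimulates the HSP90 ATPase, rose by 0.35 and 0.31 on the log2 scale (adjusted p = 0.00157 and 0.00234). For TRiC, the cytosolic chaperonin of actin and tubulin, and its partner prefoldin, 8 of 14 genes rose by edgeR and 7 by DESeq2, and 0 fell by either, with 1 lower gene at an unadjusted p under 0.05. Its median was 0.14, and the subunits Cct6a, Cct3 and Cct7 had log2 fold changes of 0.37, 0.36 and 0.23 (adjusted p = 0.001, 0.00252 and 0.00375).

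The ER folding and unfolded protein response list split in 2 directions, with 11 of 25 genes higher, 6 lower and a median of 0.11. Of all genes tested, 16.6% were higher and 15.5% lower. Hyou1, the HSP110 of the ER that exchanges the nucleotide of BiP, measured 157, 172 and 155 CPM in Veh and 234, 206 and 246 CPM in GSK (log2 fold change 0.51, SE 0.065, adjusted p = 0.000211). Atf6, a sensor of unfolded protein, and Manf, an ER chaperone cofactor, rose by 0.38 and 0.36 (adjusted p = 7.1e-05 and 2e-04). The other genes of the list that passed, and Atf4, were named after their values were seen. The folding helpers Sdf2l1, Pdia6, Calr, Creld2, Pdia4, Pdia3 and Canx rose by 0.48, 0.47, 0.40, 0.40, 0.37, 0.21 and 0.19 on the log2 scale, and the factor Xbp1 by 0.44. The 6 that fell include Eif2ak3 (PERK), the kinase that slows translation, at -0.36, and Ddit3 (CHOP), Trib3 and Ppp1r15a (GADD34), which act downstream of it, at -0.55, -0.50 and -0.30. Atf4, the transcription factor of the same branch, had a log2 fold change of 0.04 (adjusted p = 0.609). The other two that fell were P4hb, a disulfide isomerase like the Pdia genes, at -0.13 and Sdf2 at -0.23.

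Of 10 mitochondrial folding and protease genes, 0 rose and 2 fell by edgeR's quasi-likelihood test and by DESeq2, with 0 higher and 3 lower at an unadjusted p under 0.05. The genes that fell were the proteases Afg3l2, from 187, 175 and 189 CPM to 146, 137 and 135 CPM (log2 fold change -0.40, SE 0.049, adjusted p = 9e-05), and Lonp1 (-0.29, adjusted p = 0.00102). Of 18 textbook HSF1 targets, most are in the family and the others among the cochaperones, so their counts repeat genes counted above. Of 16 tested, 10 rose and 0 fell (1 lower at an unadjusted p under 0.05, 0 by DESeq2), with a median of 0.20. Of all genes tested, 16.6% rose and 15.5% fell. Hspa8, Dnaja1 and Hspe1 had the smallest p-values of the list. The 6 tested targets that did not pass were Hspa1b, Hsp90ab1, Dnajb1, Bag3, Hspa4l and Dnajb4. Their log2 fold changes were 0.26, 0.02, -0.06, -0.09, -0.15 and -0.33. Bag3 and Dnajb4 were named after their values were seen.

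**Figure D4:**
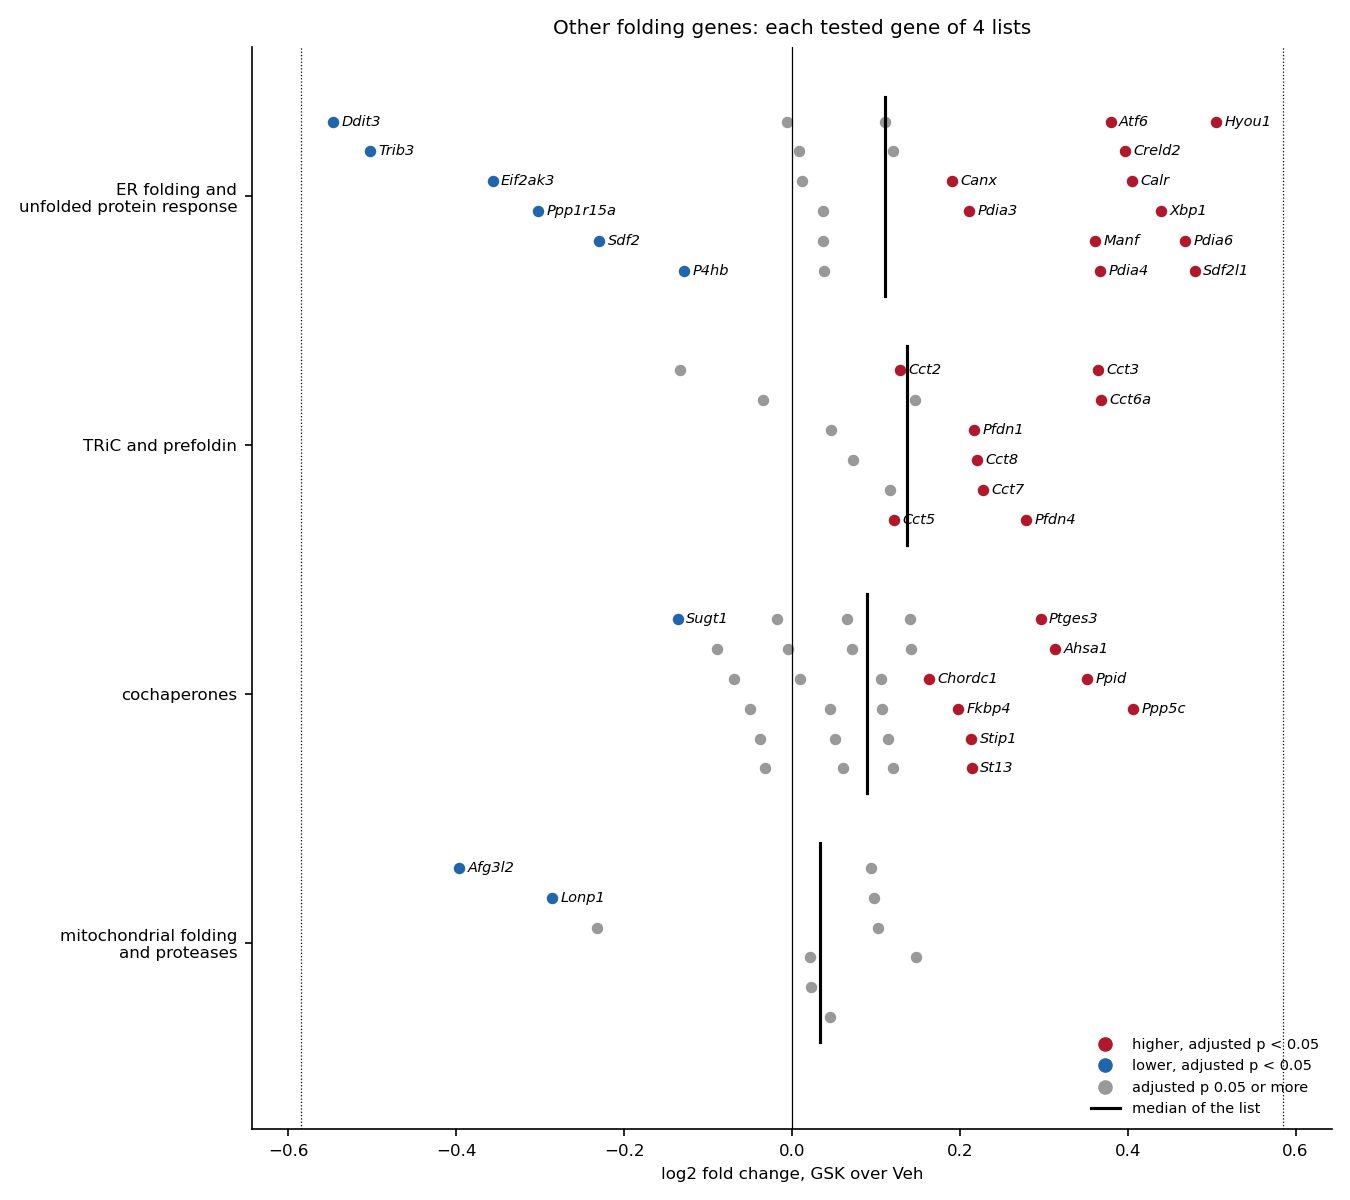
Log2 fold change of GSK over Veh for each tested gene of 4 lists of folding genes outside the family, with a vertical bar at each list's median. Red marks genes that rose and blue genes that fell at an adjusted p under 0.05, with names beside them, and dotted lines mark 1.5-fold, which no gene passed. The medians lie at 0.11, 0.14, 0.09 and 0.03 from top to bottom.

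Several of the abundant genes share sequence with processed pseudogenes, so the way reads with several matches were handled could change their counts. Of all 31-base words in the transcripts, 51.4% of Hsp90aa1, 50.1% of Hspd1, 43.5% of Hspa8, 24.8% of Hspe1, 13.4% of Dnaja1 and 13.2% of Hsp90ab1 occur in another gene. Hspa5 shares 0.023%, and Hspa4, Hsph1 and Dnaja2 share 0%. Exons of Hsp90b1 overlap other genes over 5.38% of their length on the same strand and 10.3% on the opposite strand, and those of Dnaja1 over 9.93% on the opposite strand.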

How the data were processed

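RNA was measured in 3 Veh and 3 GSK samples of CD8+ T cells. The authors made stranded, paired-end libraries of polyadenylated RNA, and the submitters' processing notes name Trimmomatic, HISAT2 (2.1.0), HTSeq (0.11.2), Cufflinks (2.2.1) and DESeq2 (1.22.2) with the GRCm38 genome. The deposited values are whole counts of reads per gene, not normalized. The annotation release, the strand setting and the handling of reads with several matches are not given in the sources used here. The table's annotation columns were used only for Entrez identifiers.

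The counts were analysed in R (4.3.3) with edgeR (4.0.16), using TMM scaling, filterByExpr, the robust quasi-likelihood test and Benjamini-Hochberg adjustment over 11698 genes. Genes past an adjusted p of 0.05 "rose" or "fell", and 1.5-fold was the further threshold. Standard errors were derived from the test statistic. The p-values weigh each difference against the spread between samples of a group, which the study describes as coming from separate mice. The technical part of that spread was not tested. Replicate pairs differed by more than counting noise (chi-square over its degrees of freedom, 4.07 to 9.38). The fit was tested on simulated counts.

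The family and all lists were chosen with earlier results of these data known. Named genes were those past both thresholds, the 10 smallest p-values in each direction, 30 family genes whatever their values, and up to 3 genes with the smallest p per list. Exceptions are stated where they occur. Positions and promoters came from RefSeq (GRCm38.p6), and exon lengths, exon overlaps and shared words from GENCODE M21. Protein features were not analysed here. One gene of the B cell list is not reported here. Alternatives were DESeq2 (1.42.0), other scalings, filters, a replicate block, a fit that was not robust, other fold thresholds and leaving out each sample.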

Additional observations from a re-analysis of the deposited data

How the results depend on the processing

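With the test against a fold change of 1.5 instead of 0, 69 of all genes were higher and 65 lower, and 0 of the chaperone genes passed in either direction (1 higher and 2 lower at an unadjusted p under 0.05 in this test). With a fold of 1.2 beside the adjusted p, 1095 of all genes were higher and 1296 lower, and 14 chaperone genes were higher. Leaving out each sample gave 1 chaperone gene past both thresholds higher each time and 1 to 3 lower, 224 to 291 higher and 403 to 547 lower among all genes, 15 to 19 higher and 2 to 6 lower chaperone genes at the adjusted p alone, and medians from 0.07 to 0.10. The lower counts of 1 and 2 came without Veh replicate 1 and without GSK replicate 1. DESeq2 gave 18 higher and 4 lower chaperone genes, and upper-quartile scaling 16 and 6. The deviations of same-numbered samples had correlations of -0.052, -0.081 and 0.16 for replicates 1, 2 and 3. In this check, 1 of 3 Veh samples correlated best with its own number. With 3 samples a group, these values cannot show whether the cultures were paired. Because pairing is not stated in the sources, the number was used only as a block in an alternative fit. With the replicate number as a block, 17 chaperone genes were higher and 5 lower, and 1 higher and 2 lower also passed 1.5-fold. Of 23 named chaperone genes past the adjusted p, 17 passed in each of 14 alternatives, which leave out the test against 1.5-fold, and 6 did not (Dnajc1, Dnajc12, Dnajc5, Hsf2, Hsp90aa1 and Hspa9). None of the 23 changed sign. Of the cochaperones, 0 were lower with DESeq2 and 0 with the block. The heat shock element count fell from 14 to 4 with 3 units, by its stricter construction. For the other changes the cause was not tested. Scaling moved the median of all genes to -0.04 at most. Counts under 50 a sample, as for Dnajc12 and Hspa1b, limit precision.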
